A study of Homo sapiens with 9 samples.

Results

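The expression profile described here is that of cells overexpressing NFE2L1DC, set against cells with the empty vector. The samples were chosen by their labels: 3 libraries of the NFE2L1DC line and 3 of the control line, 6 of the 9 libraries in the series. The control is labelled HepG2 with a wild-type genotype and, by the protocol, carries the pLVX lentiviral vector; the other line carries the same vector type with NFE2L1DC, whose name the protocol spells with a delta and the letter C, as is customary for proteins that lack their C-terminus. The sources used here do not give how much of the protein is removed, whether a line is 1 clone or a pool, or whether the 3 libraries of a line were separate cultures; the spread behind each p-value may therefore be technical. All cells were grown in high-glucose DMEM with fetal bovine serum, and no further treatment or time is labelled. A 3-library line overexpressing full-length NFE2L1 under the same conditions served as a reference at the end. Of 58174 listed genes, the 13617 that reached 1 TPM (a length-normalised share of the library) in at least 3 of the 6 libraries were tested.

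NFE2L1 belongs to the cap'n'collar family of basic leucine zipper transcription factors. It is made as a glycoprotein anchored in the endoplasmic reticulum, extracted by the VCP ATPase, and either degraded or cleaved and released to the nucleus. There it pairs with small MAF proteins on antioxidant response elements, and it is best known for raising the genes of the proteasome when proteasome activity falls. The basic region that touches DNA and the leucine zipper that holds the partner lie toward its C-terminus.

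The tissue label was checked first. HepG2 is a liver tumour line known for secreting albumin, alpha-fetoprotein and other plasma proteins. Of 12 hepatocyte markers (ALB, AFP, APOA1, APOB, TTR, SERPINA1, FGB, TF, AHSG, HNF4A, FOXA2 and APOH), 9 were listed at 0 in all 6 libraries, and the highest value of any of them was 0.165 TPM. In the same 6 libraries, none of 212 genes of 5 lists that every cell uses, such as proteasome subunits and ribosomal proteins, was listed at 0. None of 14 acute-phase genes and 2 of 24 plasma protein genes passed the filter. Of 27 genes of the urea cycle and amino-acid breakdown, however, 13 passed the filter. Among them HPD was at 560.5, 585 and 484 TPM in the controls and 395, 446 and 436 TPM with NFE2L1DC. CPS1, a urea cycle enzyme, was at 779, 782 and 1192 TPM in the controls and 1007, 726 and 856 TPM with NFE2L1DC. The libraries are therefore called by their labels here, and the values below are not described as those of hepatocyte-like cells. Both groups shared this pattern of markers. Of 7 leukocyte markers 5 were listed at 0 in all 6 libraries, among them PTPRC, CD3E, MS4A1 and LYZ, and CD14 was at 0.331 TPM at most. CD68, a lysosomal protein and the remaining marker, was at 22.1 to 23.02 TPM in the controls and 24.5 to 26.4 TPM with NFE2L1DC. Of 6 fibroblast markers COL1A2 was listed at 0 throughout, LUM was at 0.413 TPM at most and DCN was at 1.04 to 5.65 TPM in the controls and 0.267 to 0.456 TPM with NFE2L1DC. COL1A1 was at 19.1 to 22.1 TPM and PDGFRB at 4.52 to 7.62 TPM over both groups, while COL3A1 was at 99.8 to 114 TPM in the controls and 61.3 to 74.8 TPM with NFE2L1DC. The summed fibroblast list was at 126.6 to 147.9 TPM in the controls and 85.8 to 102 TPM with NFE2L1DC, without overlap, and none of the 4 members tested passed; its part in the results below was not tested. All 4 endothelial markers were at 0.196 TPM or less.

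One control library stood apart before any comparison was made. Principal component analysis of log2(TPM + 1) put 48.6% of the variance on 1 axis. There control libraries 1 and 2 lay at -35.1 and -34.8, while control library 3 lay at 18.5, among the NFE2L1DC libraries at 31.3, 9.4 and 10.7. Over 11210 protein-coding genes, the difference of control 3 from the other controls ran with GC content at a Spearman rho of -0.68, and the difference of NFE2L1DC from the controls at -0.39; the second of these was 0.30 against control 3 alone and -0.56 against controls 1 and 2. How a correction for GC content and length moved the calls is given in the closing section. Control 3 also held more genes at 1 TPM or more, 13950 against 13057 and 13072 in the other controls and 13350 to 13681 with NFE2L1DC. Other measures separated the groups: mitochondrially encoded genes took 18.33% to 18.92% of TPM in the controls and 17.04% to 17.72% with NFE2L1DC, and the 10 most abundant genes 15.14% to 15.62% and 14.35% to 14.62%. Their part in the results was not tested. Because read counts are not given, the depth behind a value is unknown and no counting interval can be stated.

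**Figure D1:**
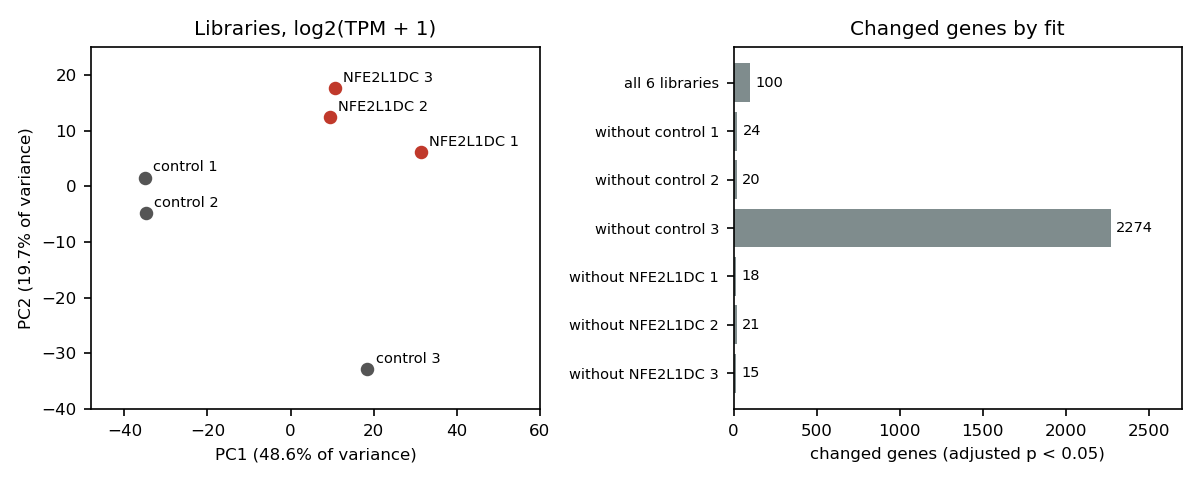
Left, the 6 libraries on the first and second principal components of log2(TPM + 1), grey for control and red for NFE2L1DC, with control 3 apart from controls 1 and 2. Right, the number of changed genes (limma adjusted p under 0.05) with all 6 libraries, 100, and with each library left out, where leaving out control 3 gives 2274 and leaving out any other gives 15 to 24.

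Of the 13617 genes, 100 (0.734%) changed at an adjusted p under 0.05 in limma's moderated test, 56 of them (0.411%) higher and 44 (0.323%) lower with NFE2L1DC. At least a doubling or halving on the log2(TPM + 1) scale was reached by 35 of the higher and 15 of the lower genes. On that scale, the changed genes with the highest log2 fold changes were the interferon-induced gene IFI27 and the ETS factor ETV5. The lowest was that of A2M, which encodes the protease inhibitor alpha-2-macroglobulin. At an unadjusted p under 0.05 stood 2366 genes, 1507 higher (11.1%) and 859 lower (6.31%), and the unadjusted counts of lists below are read against these shares. In bulk RNA, a change within cells and a change in how many cells express a gene cannot be told apart. Groups that did not overlap were common: in 1887 genes (13.9%) every NFE2L1DC library was above every control, and in 1250 (9.18%) below. They did not overlap in any of the 100 changed genes, so a lack of overlap adds nothing to a call. The median log2 fold change over all tested genes was 0.12 and not 0, so the lists below are read against that value. Of the 13617 genes, 8959 had a positive log2 fold change and 4658 a negative one, and signs within lists are read against these counts. Lists and members were chosen with earlier results of these data known, so their counts and medians are descriptions and not tests. With 0.734% of all genes changed, a count of 0 changed members says little about a list. Changed genes were found at all levels, with 17 of 6134 genes whose higher group mean was under 10 TPM, 48 of 5890 genes at 10 to 100 TPM and 35 of 1593 genes above.

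How far the calls rest on single libraries is a property of the whole profile. Without control library 3, 1885 genes were higher (14.2%) and 389 lower (2.93%), and 98 of the 100 changed genes were among them; their log2 fold changes moved by a median of 0.05 and by at most 0.26. Without any 1 of the other libraries, 15 to 24 genes passed. In a fit that added the 3 NFE2L1 libraries to estimate the spread, 291 genes were higher (2.06%) and 218 lower (1.54%), and all 100 were among them. Median-of-ratios scaling gave 50 higher (0.367%) and 51 lower genes (0.375%), and correction for GC content and length 116 (0.854%) and 61 (0.449%). Of the 100 changed genes, 12 passed in every one of the 6 fits that left out 1 library: IFI27, ETV5, NFE2L1, DUSP4, SLC9A3R1, FAM129B, IER3 and WFDC1 among the higher, and A2M, CA9, CRABP2 and IGFBP3 among the lower. For 75 of the 100, the only such fit in which they passed was that without control 3. Below, a gene is said to have kept its call in a number of these 6 fits. The genes LINC00324 and MIR339 had passed the filter only through the controls, and GGT5 and SERTAD4 only through the NFE2L1DC libraries, so those 4 had to differ to be tested.

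**Figure D2:**
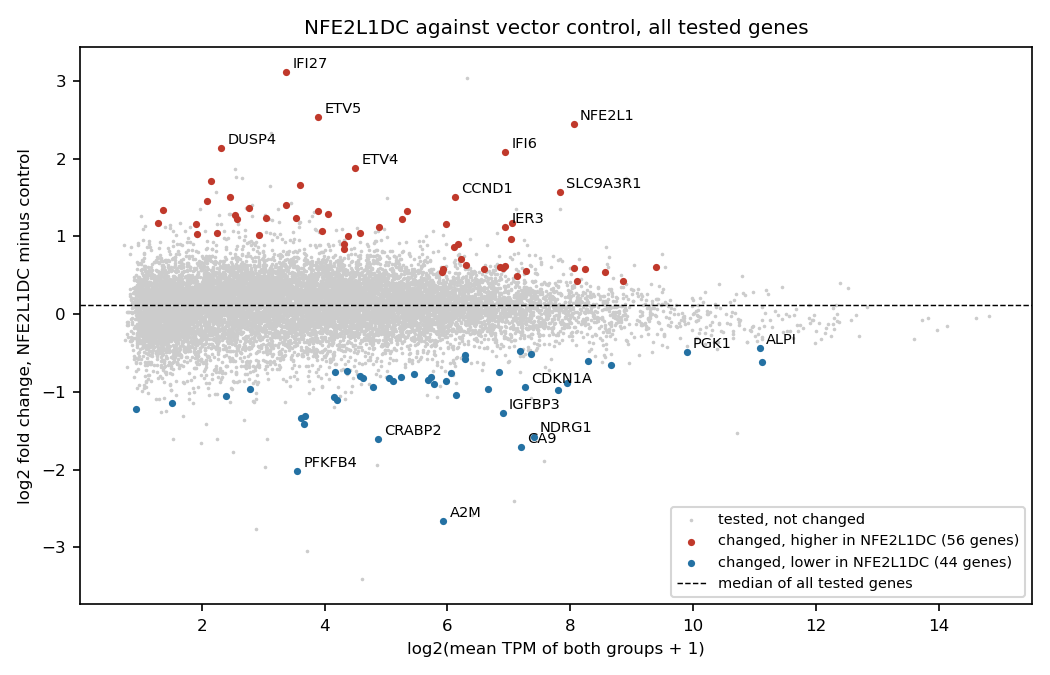
Each point is 1 of 13617 tested genes, with the mean level as log2(TPM + 1) on the horizontal axis and the log2 fold change of NFE2L1DC minus control on the vertical axis. The 56 changed genes higher with NFE2L1DC are red and the 44 lower are blue; the dashed line is the median of all tested genes, 0.12.

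**Figure D3:**
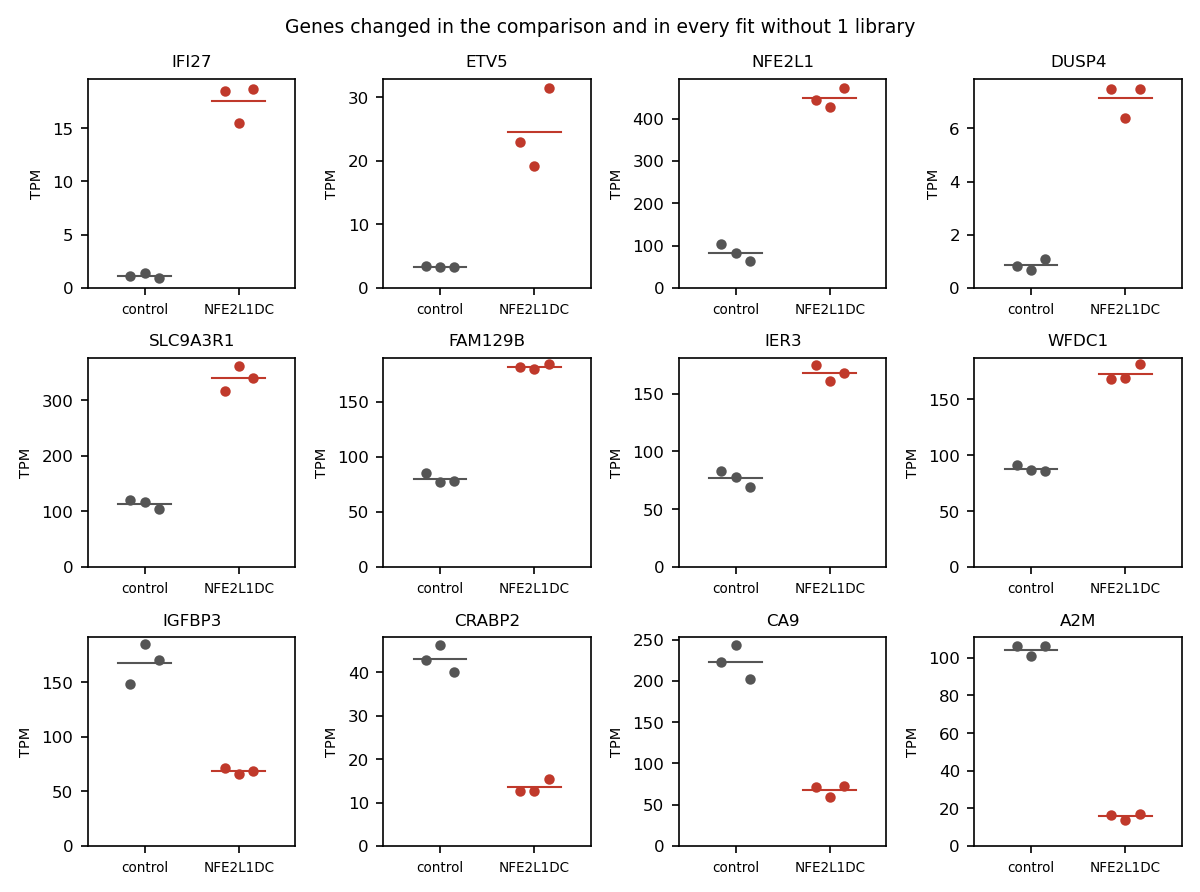
TPM of the 12 genes that changed with all 6 libraries and in every fit without 1 library, with 1 point per library, a bar at the group mean and axes from 0. In every panel the control and NFE2L1DC libraries do not overlap.

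The overexpressed gene itself was examined next. NFE2L1 (chr17:48048329-48061487, plus strand, GRCh38; ENSG00000082641) was at 104, 81.7 and 63.98 TPM in the controls and 445, 427 and 472 TPM with NFE2L1DC. The means were 83.3 ± 20.2 and 448 ± 22.9 TPM (SD, n = 3), or 5.38 times the control level (log2 fold change 2.44, SE 0.16, adjusted p = 0.00198), and the groups were far apart. TPM over the whole gene does not separate transcripts of the vector from those of the cell's own gene, nor the deleted form from the full-length one, so the value checks that the line overexpresses the gene and not which form. Its relatives did not pass the test. NFE2L2, the best-studied antioxidant factor of the family, was at 12.1, 13.7 and 36.6 TPM in the controls and 16.9, 14.8 and 13.6 TPM with NFE2L1DC (log2 fold change -0.27, adjusted p = 0.709); control 3 alone was high, and without it the value was 0.21. NFE2L3 was at 0.889, 1.41 and 2.44 TPM in the controls and 4.19, 2.13 and 2.42 TPM with NFE2L1DC (log2 fold change 0.61, adjusted p = 0.329). Of 9 tested family members and partners, NFE2L1 alone changed.

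Genes of the proteasome and of the antioxidant response, the textbook targets of NFE2L1, held no changed member, where 0.734% of all genes changed. At that share, a count of 0 says little about lists of 33 and 32 genes. All 33 subunit genes of the 26S proteasome were tested and none passed. Of them 32 had a positive log2 fold change, and 11 had every NFE2L1DC library above every control, beside 13.9% of all genes. The list's median was 0.17 against 0.12 over all genes. In limma, 9 of them were higher at an unadjusted p under 0.05 and none lower, beside 11.1% and 6.31% over all genes. The largest values were those of PSMD1, a scaffold of the regulatory particle (log2 fold change 0.78, adjusted p = 0.206), and PSMA3, an alpha ring subunit (log2 fold change 0.70, adjusted p = 0.119). Without control 3, 8 of the subunits were higher, and with all 9 libraries 3. Of 32 antioxidant response element genes none changed, with a median of 0.12, the same as over all genes; at an unadjusted p under 0.05 in limma 6 were higher and 4 lower. CBR1, a carbonyl reductase, had the largest value among them, at 218, 219.6 and 222 TPM in the controls and 79.3, 139 and 102 TPM with NFE2L1DC (log2 fold change -1.07, adjusted p = 0.0605). HMOX1, the enzyme that breaks down heme, was at 35.02, 43.8 and 29.8 TPM in the controls and 23.8, 28.1 and 28.3 TPM with NFE2L1DC (log2 fold change -0.41, adjusted p = 0.256), and TXNRD1, the cytosolic thioredoxin reductase, had a log2 fold change of 0.71 (adjusted p = 0.204). HMOX1 and CBR1 lay below the controls in all 3 NFE2L1DC libraries without reaching the threshold. Without control 3, 8 antioxidant genes were higher and 2 lower. None of 19 assembly and processing genes, 7 immunoproteasome and activator genes or 6 tested metallothionein genes changed; at an unadjusted p under 0.05 in limma, 1, 1 and 2 of them were higher and 0, 1 and 1 lower.

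Interferon-stimulated genes were among the highest. These genes are switched on when type I or type III interferons activate a transcription factor complex that holds IRF9 and binds the interferon-stimulated response element in their promoters, and many encode proteins that restrict viruses. The element was searched as GAAA, any 2 bases and GAAA on both strands in the 250 bases before the RefSeq start (GRCh38.p14), where it occurred in 839 of 27305 promoters (3.07%), in 206 of the 9518 tested genes matched to a promoter (2.16%) and in 17 of the 31 tested list members that could be matched to a promoter. It was found in 4 of the 5 changed members. The stretches below run 5′ to 3′ along the gene's own strand and show where the matches lie, with each match in capitals (TTTC, 2 bases and TTTC is the same element read on the other strand); OAS1, the fifth, held no match in this window. They are ISG15 at chr1:1013372-1013411 on the plus strand, IFI44 at chr1:78649759-78649788 on the plus strand, IFI6 at chr1:27672264-27672360 on the minus strand and IFI27 at chr14:94110616-94110662 on the plus strand.
ISG15: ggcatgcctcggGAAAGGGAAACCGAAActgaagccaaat
IFI44: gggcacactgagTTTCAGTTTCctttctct
IFI6: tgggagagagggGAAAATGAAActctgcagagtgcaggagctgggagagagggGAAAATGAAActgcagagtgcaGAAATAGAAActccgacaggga
IFI27: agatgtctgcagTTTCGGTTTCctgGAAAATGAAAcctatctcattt
The matches overlapped in ISG15, lay apart in IFI6 and lay on opposite strands in IFI27. A match describes letters, not binding.

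Of 50 interferon-stimulated genes listed, 37 were tested; 5 rose, none fell, and the median log2 fold change was 0.40 against 0.12 over all genes. In 14 of the 37 every NFE2L1DC library was above every control, and in 1 below. IFI27, a mitochondrial and nuclear envelope protein and one of the most strongly induced genes of the response, was at 1.13, 1.36 and 0.953 TPM in the controls and 18.5, 15.5 and 18.7 TPM with NFE2L1DC, or 15.3 times the control mean (log2 fold change 3.11, SE 0.17, adjusted p = 0.00128). IFI6, a small membrane protein, was at 50.95, 57.9 and 32.1 TPM in the controls and 197, 199 and 194 TPM with NFE2L1DC (log2 fold change 2.08, SE 0.20, adjusted p = 0.00846). Both were high in all 3 NFE2L1DC libraries with little spread and kept their calls in 6 and 3 of the 6 fits without 1 library. IFI44 was at 1.19, 0.669 and 1.44 TPM in the controls and 6.29, 5.22 and 5.86 TPM with NFE2L1DC (log2 fold change 1.71, adjusted p = 0.0185). ISG15, a ubiquitin-like modifier, was at 38.2, 41.7 and 33.7 TPM in the controls and 75.7, 90.8 and 91.4 TPM with NFE2L1DC (log2 fold change 1.16, adjusted p = 0.0134). OAS1, which makes the messenger that activates RNase L, was at 8.30, 10.9 and 8.07 TPM in the controls and 22.3, 17.9 and 19.97 TPM with NFE2L1DC (log2 fold change 1.07, adjusted p = 0.0431). In all 3 genes the groups did not overlap; ISG15 kept its call in 3 of the 6 fits, IFI44 and OAS1 only without control 3. HERC5, the ligase that attaches ISG15, had a log2 fold change of 0.90 (adjusted p = 0.154). Without control 3, 15 members were higher and 2 lower, and with all 9 libraries 7 were higher and none lower.

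Antigen presentation genes, which interferons also raise, held no changed member. Of 11 class I genes tested, none passed, the median was 0.27, and 5 did not overlap, all higher; 3 were higher at an unadjusted p under 0.05 in limma. HLA-B, a class I heavy chain, was at 241, 218 and 179.9 TPM in the controls and 278, 324 and 306 TPM with NFE2L1DC (log2 fold change 0.51, adjusted p = 0.116). B2M, its light chain, was at 157, 179 and 208 TPM in the controls and 202, 1127 and 989.8 TPM with NFE2L1DC (log2 fold change 1.75, adjusted p = 0.209), so the 2 high libraries were NFE2L1DC 2 and 3 and the first NFE2L1DC library lay among the controls. Of 8 tested inflammatory genes under NF-kB none passed (4 higher at an unadjusted p under 0.05 in limma), with ICAM1, an adhesion receptor for leukocytes, at a log2 fold change of 0.84 (adjusted p = 0.0824).

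Among the lists, all chosen with earlier results of these data known, that of ERK targets and feedback regulators held the most changed members. ERK, the last kinase of the RAS, RAF and MEK cascade, raises ETS and AP-1 factors and cyclin D1, and it also raises the phosphatases and adaptors that switch it off. Of 23 genes listed 20 were tested; 8 rose and none fell, all 20 had a positive log2 fold change, and the median was 0.76 against 0.12 over all genes. In 15 of the 20 the groups did not overlap. Of its transcription factors, ETV5 was at 3.41, 3.23 and 3.31 TPM in the controls and 23.00, 19.2 and 31.4 TPM with NFE2L1DC, or 7.39 times the control mean (log2 fold change 2.54, SE 0.20, adjusted p = 0.00436). Its close relative ETV4 was at 10.3, 7.70 and 7.92 TPM in the controls and 39.2, 28.8 and 35.9 TPM with NFE2L1DC (log2 fold change 1.88, SE 0.17, adjusted p = 0.00703). FOSL1, a FOS-family member of AP-1, was at 15.8, 17.5 and 18.9 TPM in the controls and 39.3, 31.4 and 48.01 TPM with NFE2L1DC (log2 fold change 1.12, adjusted p = 0.0423). The first of them kept its call in all 6 fits without 1 library, ETV4 in 4 and FOSL1 in 1, that without control 3. Among the feedback regulators, DUSP4, a nuclear phosphatase of ERK, rose from near the filter limit, with 0.812, 0.681 and 1.07 TPM in the controls and 7.49, 6.38 and 7.49 TPM with NFE2L1DC (log2 fold change 2.13, adjusted p = 0.00436). SPRED2 was at 4.42, 4.01 and 5.74 TPM in the controls and 14.3, 12.9 and 14.8 TPM with NFE2L1DC (log2 fold change 1.40, adjusted p = 0.0189). SPRY2 was at 2.54, 2.36 and 3.61 TPM in the controls and 8.89, 8.37 and 9.19 TPM with NFE2L1DC (log2 fold change 1.37, adjusted p = 0.0283). SPRED2 and SPRY2 encode adaptors that restrain RAS and RAF, and each kept its call only without control 3. IER3, an immediate early gene, was at 83.4, 77.4 and 69.5 TPM in the controls and 175, 160.4 and 168 TPM with NFE2L1DC (log2 fold change 1.12, adjusted p = 0.00506), and kept its call in all 6 fits. CCND1, cyclin D1, which drives the G1 phase through CDK4 and CDK6, was at 31.4, 30.6 and 45.6 TPM in the controls and 114, 91.04 and 101 TPM with NFE2L1DC (log2 fold change 1.50, adjusted p = 0.0165). In CCND1 the groups were far apart, yet it kept its call only without control 3, with an adjusted p of up to 0.111 in the other fits. Without control 3 and with all 9 libraries, 11 members of the list were higher and none lower. DUSP1, a phosphatase outside this list that acts on several MAP kinases, was at 50.7, 47.02 and 45.99 TPM in the controls and 88.8, 87.1 and 87.3 TPM with NFE2L1DC (log2 fold change 0.86, adjusted p = 0.0105). None of 6 tested genes of the EGF receptor family and its ligands changed, with 2 higher at an unadjusted p under 0.05 in limma.

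Targets of YAP and SRF, which respond to cell shape and tension, were mixed. YAP acts through TEAD proteins that bind GGAATG, searched on both strands and found in 3248 of 27305 promoters (11.9%), in 884 of 9518 matched tested genes (9.29%) and in 3 of 15 matched list members. CTGF, a changed member and a matricellular protein, held 3 matches in the 250 bases before its start, at chr6:131951450-131951553 on the minus strand, with the matches in capitals.
CTGF: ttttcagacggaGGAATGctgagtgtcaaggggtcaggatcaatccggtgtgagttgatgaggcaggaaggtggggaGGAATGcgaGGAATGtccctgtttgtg
CTGF was at 2.59, 2.46 and 2.65 TPM in the controls and 8.52, 6.35 and 7.36 TPM with NFE2L1DC (log2 fold change 1.23, adjusted p = 0.0317). CYR61, its relative, was at 23.7, 20.2 and 22.2 TPM in the controls and 54.6, 49.1 and 54.6 TPM with NFE2L1DC (log2 fold change 1.23, adjusted p = 0.00703). Both were higher in every NFE2L1DC library; CYR61 kept its call in 4 of the 6 fits and CTGF only without control 3. These were the only changed members of the 21 tested. The median was 0.39, and 9 members lay above the controls without overlap and 5 below. AMOTL2, a YAP-induced scaffold, had a log2 fold change of 1.05 (adjusted p = 0.0503). TAGLN, an actin-binding protein and SRF target, had a log2 fold change of -0.73 (adjusted p = 0.0605). TEAD1 was at 3.98, 2.65 and 20.6 TPM in the controls and 20.5, 15.9 and 15.5 TPM with NFE2L1DC (log2 fold change 1.31, adjusted p = 0.313), with control 3 above every NFE2L1DC library. Without control 3, 9 members were higher and 3 lower. In the TGF-beta and BMP list, ID1, a helix-loop-helix inhibitor of differentiation induced by BMP, rose (log2 fold change 0.58, adjusted p = 0.0277). It was the changed one of 14 tested genes, whose median was 0.42. Of the 14, 7 lay above the controls without overlap and 1 below, and 6 were higher and 1 lower at an unadjusted p under 0.05 in limma. BMP6 itself had 0.84 (adjusted p = 0.0605). ID1 kept its call only without control 3.

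Further genes that rose belong to no list or to small ones. SLC9A3R1, a PDZ scaffold that holds membrane proteins to the cortical cytoskeleton, was at 121, 116 and 104 TPM in the controls and 316, 363 and 341 TPM with NFE2L1DC (log2 fold change 1.57, SE 0.09, adjusted p = 0.00139). FAM129B, a cytosolic protein that moves to cell contacts, was at 85.1, 77.01 and 78.4 TPM in the controls and 181, 180.3 and 184 TPM with NFE2L1DC (log2 fold change 1.17, adjusted p = 0.00198). WFDC1, a secreted protein with a whey acidic protein domain, was at 91.5, 86.9 and 85.8 TPM in the controls and 168, 169 and 182 TPM with NFE2L1DC (log2 fold change 0.96, adjusted p = 0.00436). These 3 were abundant, varied little between the libraries of the control and of the NFE2L1DC line, and kept their calls in all 6 fits. In the NFE2L1 line SLC9A3R1 was at 342, 112 and 351 TPM and FAM129B at 196.5, 191 and 104 TPM. WFDC1 was at 162, 178 and 172 TPM there. In the limma fit of all 9 libraries, the adjusted p-values of NFE2L1DC against control were 0.0491, 0.02 and 0.000395 for SLC9A3R1, FAM129B and WFDC1. LRRC8D, a subunit of the volume-regulated anion channel, was at 4.10, 6.20 and 4.43 TPM in the controls and 19.2, 17.1 and 16.1 TPM with NFE2L1DC (log2 fold change 1.66, adjusted p = 0.0146). It was the changed one of 3 tested subunits, whose median was 0.40. All 3 lay above the controls without overlap and were higher at an unadjusted p under 0.05 in limma, beside 13.9% and 11.1% of all genes. SERPINE2, an inhibitor of thrombin and urokinase, was at 6.01, 7.50 and 8.93 TPM in the controls and 21.7, 18.6 and 20.2 TPM with NFE2L1DC (log2 fold change 1.33, adjusted p = 0.0243). NPAS2, a CLOCK paralogue of the circadian clock, had a log2 fold change of 1.32 (adjusted p = 0.0175). LRRC8D kept its call in 2 of the 6 fits, SERPINE2 and NPAS2 only without control 3. LAMTOR5, a subunit of the Ragulator complex that tethers mTORC1 to the lysosome, was at 97.5, 95.2 and 90.7 TPM in the controls and 152, 137 and 141 TPM with NFE2L1DC (log2 fold change 0.60, adjusted p = 0.0297). KRT7, a simple epithelial keratin, rose with a log2 fold change of 0.61 (adjusted p = 0.0423) and was the changed one of 7 tested keratins. Of the 7, 4 lay above the controls without overlap and none below. The calls of LAMTOR5 and KRT7 were kept only without control 3.

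The lists of amino-acid starvation, tRNA charging and the heat shock response had medians above that of all genes. Of 22 genes of the ATF4 list 2 rose, beside 0.411% of all genes. TRIB3, a pseudokinase that restrains ATF4 and AKT, was at 54.3, 49.4 and 44.6 TPM in the controls and 91.4, 95.4 and 92.9 TPM with NFE2L1DC (log2 fold change 0.91, adjusted p = 0.0146). SLC1A5, a glutamine transporter, was at 328, 294 and 294 TPM in the controls and 409, 470.5 and 462 TPM with NFE2L1DC (log2 fold change 0.55, adjusted p = 0.0445). TRIB3 kept its call in 2 of the 6 fits and SLC1A5 only without control 3. The list's median was 0.31, and 11 of its members lay above the controls without overlap. None of 20 aminoacyl-tRNA synthetase genes changed with all 6 libraries, against 10 higher at an unadjusted p under 0.05 in limma and 10 higher without control 3; their median was 0.35, and 0.53 without that library. None of 20 heat shock and chaperone genes changed with all 6, against 14 higher at an unadjusted p under 0.05 and 14 without control 3; their median was 0.43, and 19 of the 20 values were positive. HSPD1, the mitochondrial chaperonin, was at 88.7, 90.2 and 189 TPM in the controls and 232, 184 and 174 TPM with NFE2L1DC (adjusted p = 0.245), with control 3 inside the NFE2L1DC range. Of 75 cytosolic ribosomal protein genes none changed, the median was -0.12, and 22 lay below the controls without overlap; at an unadjusted p under 0.05 in limma 1 was higher and 17 lower. All 13 mitochondrially encoded genes had a negative log2 fold change, median -0.08, and none passed (2 lower at an unadjusted p under 0.05). Lists of other housekeeping processes held no changed gene by limma either: at an unadjusted p under 0.05, 15 of 43 mitochondrial ribosomal protein genes were higher and none lower, 1 and 2 of 40 nuclear respiratory chain genes, 0 and 2 of 20 genes of folding in the endoplasmic reticulum, 1 and 0 of 22 cholesterol genes, and 3 and 3 of 22 autophagy and lysosome genes.

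Among genes that fell, A2M led. A2M, which traps proteases in plasma and was the changed one of the 2 plasma protein genes tested, was at 106, 101 and 106 TPM in the controls and 16.4, 13.5 and 17.2 TPM with NFE2L1DC (log2 fold change -2.66, SE 0.12, adjusted p = 0.000524), the smallest p of all genes tested. The controls stood within a narrow band and all 3 NFE2L1DC libraries far below it. It kept its call in all 6 fits and with the replicate numbers as a block, where no other gene passed. CRABP2, which carries retinoic acid to its nuclear receptor, was at 42.9, 46.4 and 40.2 TPM in the controls and 12.6, 12.7 and 15.4 TPM with NFE2L1DC (log2 fold change -1.60, adjusted p = 0.00436). IGFBP3, the main carrier of insulin-like growth factors in serum, was at 148, 185 and 170.1 TPM in the controls and 71.7, 66.3 and 68.5 TPM with NFE2L1DC (log2 fold change -1.27, adjusted p = 0.00436). PTGS1, the constitutive cyclooxygenase, was at 18.1, 17.1 and 17.2 TPM in the controls and 5.52, 5.99 and 6.22 TPM with NFE2L1DC (log2 fold change -1.42, adjusted p = 0.00846). The first 2 of these kept their calls in all 6 fits and PTGS1 in 1, that without control 3. C17orf58 fell with a log2 fold change of -1.33 (adjusted p = 0.0225), SPAG4, a nuclear envelope protein, with -1.32 (adjusted p = 0.0445), and ADSSL1, the muscle form of an adenylosuccinate synthase, with -1.11 (adjusted p = 0.0189). Each of these 3 kept its call only without control 3.

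Genes raised by low oxygen and genes of glycolysis were partly lower. In low oxygen HIF1A and EPAS1 escape degradation and bind a core of ACGTG or GCGTG, searched on both strands. This short core occurred in 11763 of 27305 promoters (43.1%), in 5629 of the 9518 tested genes matched to a promoter (59.1%) and in 12 of 16 matched members of the hypoxia list. It is shown in the promoters of 3 lower genes: CA9 at chr9:35673898-35673926 on the plus strand, PFKFB4 at chr3:48556953-48556981 on the minus strand and PGK1 at chrX:78104025-78104081 on the plus strand, with matches in capitals on either strand.
CA9: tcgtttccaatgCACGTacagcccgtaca
PFKFB4: tgagttgggcatGCGTGgtcggaggccgg
PGK1: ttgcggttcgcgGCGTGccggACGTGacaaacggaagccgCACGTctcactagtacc
The 1 match of CA9 lay 18 bases before the start, whereas those of PGK1 lay 183 to 211 bases before it. CA9, a cell-surface carbonic anhydrase that removes acid, was at 224, 243 and 202 TPM in the controls and 70.8, 59.6 and 72.4 TPM with NFE2L1DC (log2 fold change -1.71, SE 0.11, adjusted p = 0.00198), and kept its call in all 6 fits. NDRG1, a hypoxia-induced protein of vesicle traffic, was at 257, 337 and 172 TPM in the controls and 81.8, 92.7 and 72.5 TPM with NFE2L1DC (log2 fold change -1.57, adjusted p = 0.0412); its controls varied most, with control 3 lowest, and the call was kept in 1 fit, that without control 3. These 2 were the changed members of the 21 tested, against none that rose, and the list's median was -0.33. In 9 members the NFE2L1DC libraries lay below the controls without overlap and in 4 above. BNIP3, a mitophagy receptor, had a log2 fold change of -1.04 (adjusted p = 0.0769), and EGLN3, a prolyl hydroxylase that marks HIF for degradation, -0.92 (adjusted p = 0.063). Without control 3, 5 members were lower and none higher, and the median was -0.10.

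Of 23 genes of glycolysis and glucose transport 3 fell and none rose. PFKFB4, which makes the activator of phosphofructokinase, was at 15.9, 22.5 and 14.9 TPM in the controls and 2.93, 4.90 and 3.10 TPM with NFE2L1DC (log2 fold change -2.02, adjusted p = 0.0175). ALDOC, an aldolase, was at 91.5, 101 and 87.8 TPM in the controls and 45.3, 46.1 and 43.7 TPM with NFE2L1DC (log2 fold change -1.04, adjusted p = 0.00703). PGK1, phosphoglycerate kinase, was at 1093, 1148 and 1091 TPM in the controls and 794, 786 and 797 TPM with NFE2L1DC (log2 fold change -0.49, adjusted p = 0.0189). PGK1 was among the abundant genes and fell by little, PFKFB4 was low and fell most. ALDOC kept its call in 5 of the 6 fits, PFKFB4 in 2 and PGK1 only without control 3. The list's median was -0.15 and 9 members lay below the controls without overlap, 2 above. The neuronal enolase ENO2 had a log2 fold change of -0.89 (adjusted p = 0.0597) and GPI, glucose-6-phosphate isomerase, -0.48 (adjusted p = 0.0605). Without control 3, 11 members were lower and none higher. ENO3, the muscle enolase and not a member of the list, fell (log2 fold change -0.86, adjusted p = 0.014). TXNIP, an inhibitor of thioredoxin and glucose uptake that glucose induces, fell as well (log2 fold change -0.96, adjusted p = 0.0423).

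Some inhibitors of cell division fell. CDKN1A, the p21 inhibitor of cyclin-dependent kinases, was at 210.5, 215 and 178 TPM in the controls and 101, 112 and 101 TPM with NFE2L1DC (log2 fold change -0.93, SE 0.10, adjusted p = 0.014). BTG2, an antiproliferative p53 target, was at 27.6, 29.6 and 30.5 TPM in the controls and 17.1, 16.1 and 15.98 TPM with NFE2L1DC (log2 fold change -0.80, adjusted p = 0.0327). CDKN2D, the p19 inhibitor of CDK4 and CDK6, fell with a log2 fold change of -0.96 (adjusted p = 0.0481). In each the groups did not overlap, and each kept its call only without control 3. CDKN1A and BTG2 were the changed members of 19 tested p53 targets, whose median was -0.03. CDKN1C, the p57 inhibitor, had -0.89 (adjusted p = 0.056), and CCND1 was the changed one of 15 G1 regulators. None of 23 replication genes and none of 21 mitosis genes changed, with medians of 0.22 and 0.10. At an unadjusted p under 0.05 in limma 5 of the first were higher and 1 of the second lower. Without control 3, 8 replication and 5 mitosis genes were higher and none lower, beside 14.2% higher over all genes. The medians in that fit were 0.29 and 0.34, against 0.18 over all genes. Of the genes of matrix and cell surface, LOXL2, a collagen cross-linking oxidase, fell (log2 fold change -0.89, adjusted p = 0.0132), and so did WISP2, a relative of CTGF (log2 fold change -0.65, adjusted p = 0.0189). None of 23 tested collagen and matrix genes passed (2 higher and 3 lower at an unadjusted p under 0.05 in limma), among them FN1 at 0.60 (adjusted p = 0.0741) and COL3A1 at -0.62 (adjusted p = 0.0612). NOTUM, a secreted enzyme that inactivates Wnt proteins, fell (log2 fold change -1.05, adjusted p = 0.0461), as did SREBF1, the master factor of lipid synthesis (log2 fold change -0.48, adjusted p = 0.0423), and H1F0, a replacement linker histone (log2 fold change -0.52, adjusted p = 0.0481). The calls of LOXL2, WISP2, NOTUM, SREBF1 and H1F0 were kept only without control 3.

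**Figure D4:**
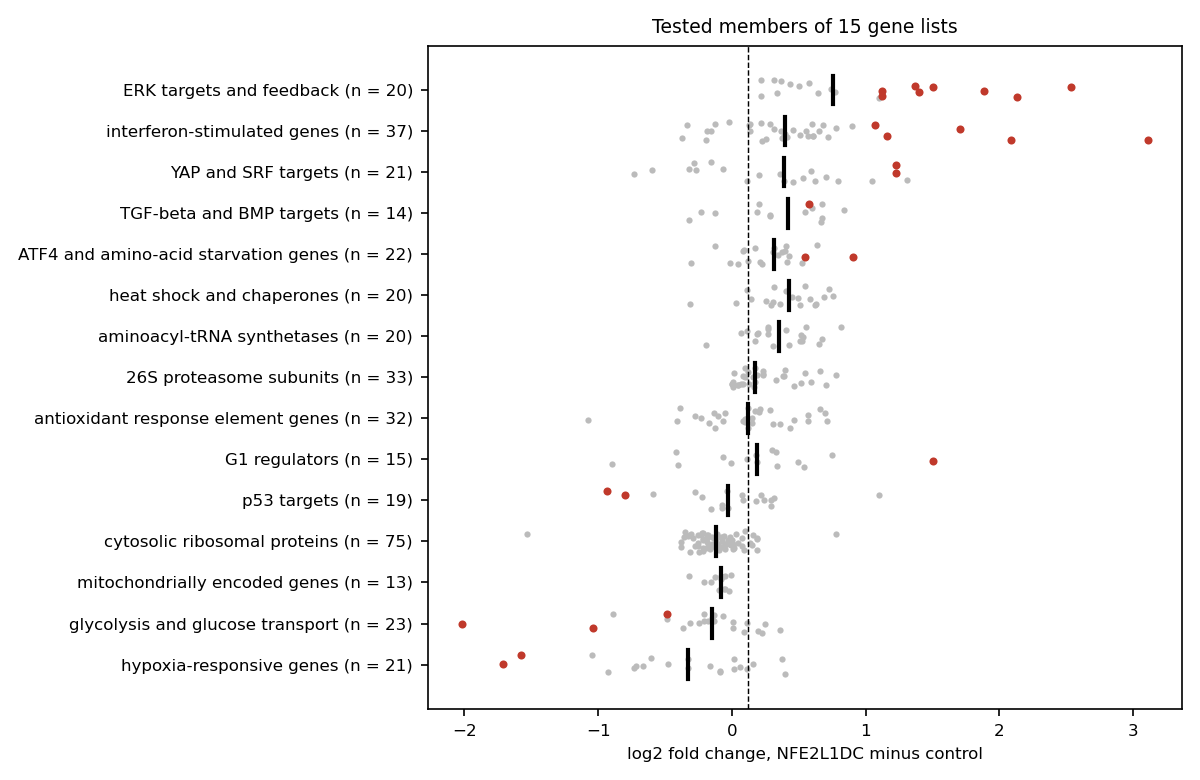
Log2 fold change of NFE2L1DC minus control for the tested members of 15 gene lists, 1 point per gene, red where changed and grey where not, with a black bar at the list's median and a dashed line at the median of all tested genes. The ERK list lies farthest to the right, with a median of 0.76, and the hypoxia list farthest to the left, at -0.33.

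Of the 100 changed genes 93 were protein-coding, and the other 7 were all lower. EML2-AS1, antisense to EML2, fell with a log2 fold change of -1.06 (adjusted p = 0.0327), LINC00963 with -0.75 (adjusted p = 0.0183), AL590867.2 with -0.74 (adjusted p = 0.0423) and GACAT2 with -0.73 (adjusted p = 0.0486). EEF1A1P6, a processed pseudogene of the elongation factor EEF1A1 that shares its sequence, had -0.60 (adjusted p = 0.0433). The division of reads between a pseudogene and its parent, or between sense and antisense transcripts, is not stated in the labels, so these values are uncertain. The same holds for ALPI, an alkaline phosphatase with near-identical relatives, which fell with a log2 fold change of -0.44 (adjusted p = 0.0437). ALPP, of the same family, lay the other way, at 492, 470 and 431 TPM in the controls and 545, 579 and 609 TPM with NFE2L1DC. The division of reads between them was not tested.

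The NFE2L1DC line was then compared with the line overexpressing full-length NFE2L1, in a fit of all 9 libraries and 14118 genes. The gene itself was at 207, 181 and 354 TPM in the NFE2L1 libraries, a direct log2 difference of 0.92 for NFE2L1DC minus NFE2L1 (adjusted p = 0.228), so the level of overexpression was higher in the NFE2L1DC means without passing the test. Between the lines 112 genes (0.793%) differed, 11 (0.0779%) higher and 101 (0.715%) lower with NFE2L1DC. HMOX1 differed most among genes of at least 10 TPM, at 262, 288 and 287 TPM with NFE2L1 and 23.8, 28.1 and 28.3 TPM with NFE2L1DC (log2 difference -3.34, SE 0.14, adjusted p = 5.79e-06), the latter beside 35.02, 43.8 and 29.8 TPM in the controls. Interferon-stimulated genes made up the largest listed group: 30 of 43 tested were lower with NFE2L1DC than with NFE2L1 and none higher, with a median of -1.26 against -0.06 over all genes. ISG15 was at 508, 582 and 540.3 TPM with NFE2L1 (log2 difference -2.65, adjusted p = 5.79e-06). IRF7, a factor that amplifies the response, was at 32.8, 26.97 and 29.6 TPM with NFE2L1 and 5.02, 3.89 and 4.01 TPM with NFE2L1DC, beside 4.60, 4.85 and 5.60 TPM in the controls (log2 difference -2.54, adjusted p = 5.1e-05). HMOX1 and IRF7 thus lay at or below the control level with NFE2L1DC, whereas ISG15 lay between the controls and the NFE2L1 line. UBE2L6, the conjugating enzyme for ISG15, and IFIT3, which binds viral RNA, had log2 differences of -2.48 (adjusted p = 7.88e-05) and -2.40 (adjusted p = 0.000686).

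Higher with NFE2L1DC than with NFE2L1 was TRIM16, a tripartite motif protein of stress and autophagy, at 115, 105 and 97.3 TPM against 49.4, 45.9 and 53.7 TPM (log2 difference 1.08, adjusted p = 0.0166), beside 69.3, 63.7 and 102 TPM in the controls. RAB40C, a small GTPase that serves a ubiquitin ligase, was at 17.1, 22.1 and 21.3 TPM against 8.30, 9.67 and 7.204 TPM (log2 difference 1.17, adjusted p = 0.0227), beside 30.1, 20.2 and 19.6 TPM in the controls. FN3KRP, a kinase of glycated proteins, differed by 1.15 (adjusted p = 0.0189) and TNNC1, a troponin, by 0.94 (adjusted p = 0.0342). The means of FN3KRP were 52.4 TPM with NFE2L1DC, 23.6 TPM with NFE2L1 and 44.8 TPM in the controls. Those of TNNC1 were 21.1, 10.6 and 19.9 TPM in the same order. RAB40C, FN3KRP and TNNC1 were near the control level with NFE2L1DC and lower in the NFE2L1 line, and the controls of TRIM16 spread widely. Of the 100 genes changed against the control, 19 differed between the lines and 81 did not pass, which does not show that those 81 were alike. CA9 was at 114, 117 and 115 TPM with NFE2L1, above NFE2L1DC (log2 difference -0.77, adjusted p = 0.00694), and A2M at 26.2, 22.4 and 24.04 TPM (log2 difference -0.60, adjusted p = 0.0474). IGFBP3 was at 107, 102 and 117 TPM (log2 difference -0.65, adjusted p = 0.0153). In those 3 genes the NFE2L1DC libraries were the lowest of the 9. DUSP4 and ETV4 were at 16.4, 15.2 and 16.2 TPM and 64.8, 57.5 and 66.6 TPM with NFE2L1, above NFE2L1DC by log2 differences of -1.06 (adjusted p = 0.00797) and -0.85 (adjusted p = 0.0354). LAMTOR5 was higher with NFE2L1DC (0.58, adjusted p = 0.00928). Leaving out 1 library of the NFE2L1 line left 36 to 45 differing genes, leaving out NFE2L1DC library 2 or 3 left 53 or 54, and leaving out control 3, which enters only the estimate of spread and the filter, gave 148.

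**Figure D5:**
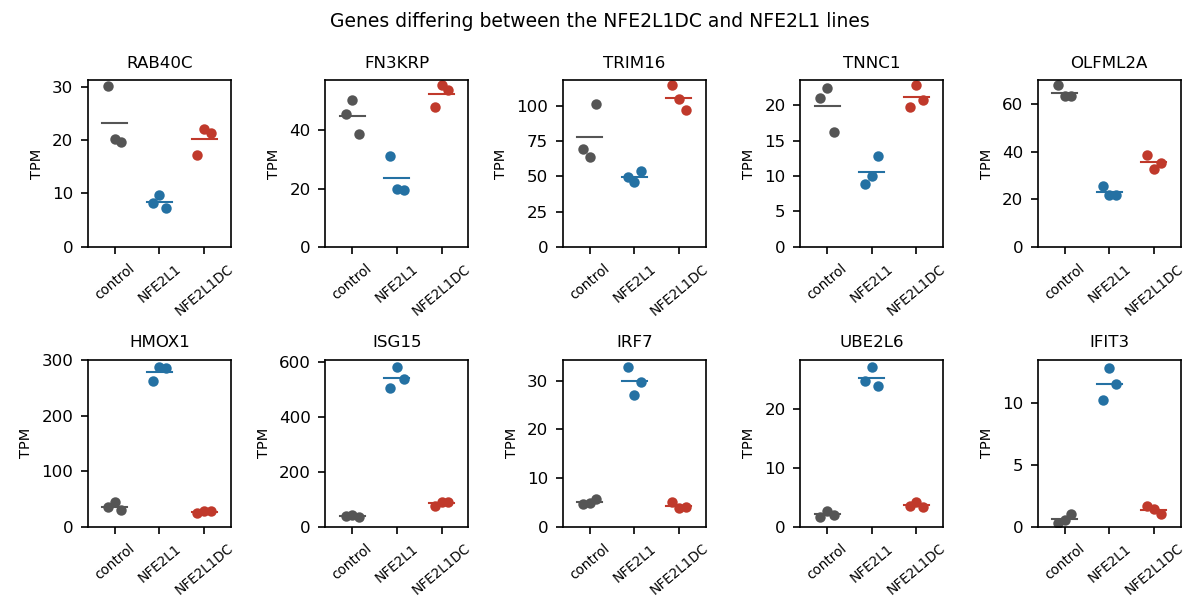
TPM of the 10 genes at the extremes of NFE2L1DC against NFE2L1, with 1 point per library, bars at the group means and axes from 0. The NFE2L1 libraries (blue) stand apart from NFE2L1DC (red); control libraries are grey.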

How the data were processed

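RNA from 3 control, 3 NFE2L1DC and 3 NFE2L1 libraries was sequenced by a company, per the labels' protocols. The authors deposited TPM values per gene; per the submitters' processing notes CASAVA and GRCh38 were used, and not given in the sources used here are the aligner, quantifier, annotation, strandedness and filters. TPM is scaled within a library, so a change in abundant genes shifts all others, and it keeps no depth. The design expected TPM and named a count model only for the case that counts were given. The planned test was therefore used: limma 3.58.1 (R 4.3.3) with an abundance trend (3.43 prior degrees of freedom) on log2(TPM + 1). It was 2-sided, on 6 libraries and genes at 1 TPM or more in at least 3. P-values were adjusted by Benjamini and Hochberg over all genes tested, and under 0.05 a gene is called changed. The added 1 makes log2 fold changes of low genes too small, and folds are ratios of mean TPM. NFE2L1DC and NFE2L1 were compared in a 9-library fit (3.34 prior degrees of freedom). Identifiers (57836 of 58174) were matched to GENCODE, and promoters are RefSeq's.

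Genes were named by rule: NFE2L1, NFE2L2 and NFE2L3; the 10 highest and 10 lowest changed protein-coding genes of at least 10 TPM with groups that do not overlap, and the 5 smallest p-values; up to 4 changed members per list and direction, or up to 2 uncalled ones; 4 changed genes per direction that are not protein-coding; and the 5 highest and 5 lowest between the lines. Other genes named were chosen after their values were seen (among them WFDC1, DUSP1, FOSL1, SPRY2, OAS1, LAMTOR5, NPAS2, ENO3, TXNIP, LOXL2, WISP2, CDKN2D, TEAD1, EEF1A1P6 and ALPI). Members and lists were chosen with earlier results of these data known. The alternatives were other pseudocounts, filters and scaling, GC and length correction, a replicate block, array weights, robust moderation and leaving out each library. The fit was tested on simulated data.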

Additional observations from a re-analysis of the deposited data

How the results depend on the processing

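With 100 genes changed against the control, pseudocounts of 0.1 and 5 gave 90 and 102, a filter of 1 TPM in all libraries 92, robust moderation 95 and median-of-ratios scaling 101 (50 higher, 51 lower, 67 of them shared with the 100). Correction for GC content and length gave 177, of which 93 were shared, no filter 27, all 9 libraries 509 and array weights, which gave control 3 a weight of 0.24, 2514 (1878 higher, 636 lower). Among the genes named in this report, SREBF1, H1F0, NOP2 and CGA lost their calls under the GC and length correction (limma adjusted p = 0.119, 0.05545, 0.05032 and 0.05545). Leaving out 1 library gave 15 to 2274. For the 112 genes differing between the lines, median-of-ratios scaling gave 73, array weights 201 and leaving out 1 library 36 to 148. The cause of these moves was not tested. Same-numbered control and NFE2L1DC libraries deviated with correlations of -0.198, 0.119 and -0.209, so the numbers were not taken as pairs; a fit with the replicate number as a block called 1 gene, A2M (adjusted p = 0.0212), with 1814 at an unadjusted p under 0.05, and 58 between the lines. No changed gene reversed its direction: over the 100 changed genes, 935 of 1580 alternative values kept the call and 645 lost it. NFE2L2, uncalled at -0.27, turned to 0.0481 with array weights and ranged from -0.55 to 0.21 over the fits without 1 library, the latter without control 3. Medians near 0 moved across it with scaling: the mitosis list went from 0.10 to -0.01 under median-of-ratios scaling and p53 targets from -0.03 to 0.04 under GC and length correction. With 3 libraries a group and no counts, precision rests on the spread between libraries.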

Other observations

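Several changed genes fell outside every list and are given here by value, chosen after their values were seen. RRS1, a nucleolar protein of ribosome assembly, had a log2 fold change of 0.64 (adjusted p = 0.0346), the nucleolar RNA methyltransferase NOP2 of 0.50 (adjusted p = 0.0423), EBNA1BP2 of 0.59 (adjusted p = 0.0431) and CCDC86 of 0.56 (adjusted p = 0.0423). ODC1, the first enzyme of polyamine synthesis, had 0.43 (adjusted p = 0.0431). NEDD9, an adhesion docking protein, was at 1.57, 1.62 and 2.40 TPM in the controls and 8.07, 5.91 and 7.32 TPM with NFE2L1DC (log2 fold change 1.50, adjusted p = 0.0277), and TGM2, a protein cross-linking enzyme, was at 2.42, 2.13 and 2.71 TPM in the controls and 6.95, 7.07 and 7.72 TPM with NFE2L1DC (log2 fold change 1.27, adjusted p = 0.0243). BCAR3, an adaptor that binds docking proteins of the CAS family, had 1.01 (adjusted p = 0.0481), and WWC1, known as KIBRA, an upstream member of the Hippo pathway, had 1.05 (adjusted p = 0.0189). Each of these genes kept its call only in the fit without control 3.

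CGA, the alpha chain shared by the glycoprotein hormones, was at 1.90, 2.43 and 1.92 TPM in the controls and 5.84, 5.26 and 5.02 TPM with NFE2L1DC (log2 fold change 1.05, adjusted p = 0.0481), and PHLDA2, an imprinted regulator of placental growth, rose as well (log2 fold change 0.62, adjusted p = 0.0389). INSL4, a relaxin-family peptide of the placenta, was at 31.6, 38.7 and 36.02 TPM in the controls and 17.7, 19.4 and 16.8 TPM with NFE2L1DC (log2 fold change -0.94, adjusted p = 0.0283). WNT6, a secreted Wnt ligand, fell (log2 fold change -0.82, adjusted p = 0.0317). PRSS56, a serine protease and one of the most abundant transcripts here, was at 2902, 2756 and 2420.0 TPM in the controls and 1769, 1680.0 and 1826 TPM with NFE2L1DC (log2 fold change -0.61, adjusted p = 0.0283). The control and NFE2L1DC libraries of CGA, INSL4 and PRSS56 did not overlap, and each gene kept its call only without control 3.

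Some of the largest differences did not pass the test. SNORD65, a small nucleolar RNA, was at 37.3, 38.6 and 32.4 TPM in the controls and 31.9, 0.188 and 0.0928 TPM with NFE2L1DC (adjusted p = 0.224), high in the first NFE2L1DC library and below 1 TPM in the other two.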
